A study of Rattus norvegicus with 12 samples.

Results

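Genes of the contractile actin cytoskeleton, and known targets and regulators of the transcription factor SRF and of the coactivators YAP and TAZ, were examined in cultured primary cells of the rat inner medullary collecting duct (IMCD), where the final concentration of urine is set. The genes were chosen for function, but with earlier results of these data known. A fixed list of 49 names was used, covering 47 genes, because Ctgf and Cyr61 stand there beside their current symbols Ccn2 and Ccn1. The array named 43 of them among the 14506 genes tested, through 1 probe set per gene, the one with the highest mean. Cnn2 and Mkl1 were not among the named genes, and Myl6 and Myh9 only shared probe sets with other genes. These 4 have no levels here and enter only the promoter counts. The 43 fall into 12 muscle-type genes, whose products are best known from muscle cells, and 31 that non-muscle cells also or mainly use.

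Cells came from kidneys of male SD rats aged 7 weeks and all had first spent 4 days at 640 mOsm/kg in culture. They were then moved to 300 mOsm/kg or kept at 640 mOsm/kg, and RNA was taken after 24 h or 48 h more, which gave 4 groups of 3 samples with 1 array each: 300 mOsm at 48 h, 640 mOsm at 48 h, 300 mOsm at 24 h and 640 mOsm at 24 h. Cells kept at 640 mOsm are thus the control, and no group represents cells that never met hyperosmolar medium. Nothing in the labels tells if the samples within a group are from different rats or dishes, so the p-values cover the spread among these samples alone, which may be technical, and 3 arrays per group limit the precision. These are bulk samples, in which more cells of a type and more RNA per cell cannot be told apart.

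The actin cytoskeleton is built from cytoplasmic actins in every cell, while muscle cells and activated stromal cells add muscle actins, calponin, transgelin and tropomyosin. SRF binds the CArG box, a short motif with an A/T-rich core, and is switched on by its coactivator MRTF-A (Mkl1), which is released when actin monomers are used up in filaments. YAP and TAZ (Wwtr1) enter the nucleus when cells are spread and under tension and act through TEAD factors on genes such as Ccn1, Ccn2 and Ankrd1. Several genes answer to both routes, so the list mixes structural genes, direct targets and regulators.

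Promoters show which of these genes carry the letters of either motif. Shown are the muscle-type genes that were higher at 300 mOsm after 48 h and have an entry in the promoter table, the actins that have one, and, chosen after the matches were seen, Srf and Ccn2. Each sequence runs from 250 bases before to 50 bases after the start of the gene in RefSeq (build GRCr8), 5' to 3' on the strand of the gene. Capitals mark an exact CArG box (CC, then 6 letters of A or T, then GG) or the letters GGAATG or CATTCC, the core bound by TEAD factors read on either strand. Stretches with a mismatch to the box stay in lower case and are not counted, such as ccctatatgg and ccttgtttgg in Acta2.
Acta1: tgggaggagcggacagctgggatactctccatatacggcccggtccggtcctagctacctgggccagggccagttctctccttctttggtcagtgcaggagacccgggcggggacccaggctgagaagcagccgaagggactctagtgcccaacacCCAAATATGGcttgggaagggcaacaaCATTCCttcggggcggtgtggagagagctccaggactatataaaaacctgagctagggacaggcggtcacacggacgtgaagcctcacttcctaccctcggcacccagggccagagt
Actg1: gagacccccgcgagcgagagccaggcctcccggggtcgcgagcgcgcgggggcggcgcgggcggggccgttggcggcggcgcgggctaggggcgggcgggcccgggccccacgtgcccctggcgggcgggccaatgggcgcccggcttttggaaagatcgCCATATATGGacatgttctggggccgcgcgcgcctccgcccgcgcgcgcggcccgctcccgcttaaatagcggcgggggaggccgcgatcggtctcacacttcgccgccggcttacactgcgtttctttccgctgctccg
Srf: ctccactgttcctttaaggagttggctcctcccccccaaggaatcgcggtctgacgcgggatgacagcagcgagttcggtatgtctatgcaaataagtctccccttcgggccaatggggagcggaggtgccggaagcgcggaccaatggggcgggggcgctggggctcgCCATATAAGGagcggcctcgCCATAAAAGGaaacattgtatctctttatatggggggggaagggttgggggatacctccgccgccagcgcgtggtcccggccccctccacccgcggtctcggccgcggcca
Acta2: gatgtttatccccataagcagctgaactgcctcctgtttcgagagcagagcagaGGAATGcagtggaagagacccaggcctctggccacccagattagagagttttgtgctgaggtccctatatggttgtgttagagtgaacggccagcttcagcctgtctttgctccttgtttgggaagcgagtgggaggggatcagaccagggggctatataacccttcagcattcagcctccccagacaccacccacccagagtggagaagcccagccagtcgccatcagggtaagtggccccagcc
Ccn2: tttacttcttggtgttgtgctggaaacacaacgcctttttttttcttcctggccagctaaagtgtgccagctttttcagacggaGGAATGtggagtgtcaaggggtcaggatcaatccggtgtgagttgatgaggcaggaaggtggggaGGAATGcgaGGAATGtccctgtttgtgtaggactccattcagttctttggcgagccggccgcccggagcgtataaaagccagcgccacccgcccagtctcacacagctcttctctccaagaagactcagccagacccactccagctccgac
Cnn1: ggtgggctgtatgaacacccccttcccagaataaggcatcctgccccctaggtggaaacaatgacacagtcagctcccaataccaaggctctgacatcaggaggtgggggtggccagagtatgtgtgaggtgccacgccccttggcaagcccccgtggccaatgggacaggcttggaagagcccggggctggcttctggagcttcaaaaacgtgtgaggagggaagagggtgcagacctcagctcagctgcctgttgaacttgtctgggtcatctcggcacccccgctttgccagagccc
Lmcd1: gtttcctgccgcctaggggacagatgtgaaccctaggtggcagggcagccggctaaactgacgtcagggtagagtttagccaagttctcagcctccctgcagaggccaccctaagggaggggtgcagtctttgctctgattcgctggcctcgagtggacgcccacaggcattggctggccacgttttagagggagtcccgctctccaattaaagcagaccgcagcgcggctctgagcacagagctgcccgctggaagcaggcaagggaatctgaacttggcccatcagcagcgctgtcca
Actg2: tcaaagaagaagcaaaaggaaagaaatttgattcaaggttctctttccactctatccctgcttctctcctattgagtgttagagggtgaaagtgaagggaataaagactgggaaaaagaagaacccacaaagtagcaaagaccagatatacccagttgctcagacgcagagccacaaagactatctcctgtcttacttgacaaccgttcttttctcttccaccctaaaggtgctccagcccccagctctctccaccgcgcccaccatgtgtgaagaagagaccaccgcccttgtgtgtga
These regions are Acta1 at chr19:68784145-68784444 (minus strand), Actg1 at chr10:106120902-106121201 (minus strand), Srf at chr9:21923826-21924125 (plus strand), Acta2 at chr1:241172454-241172753 (minus strand), Ccn2 at chr1:22624565-22624864 (minus strand), Cnn1 at chr8:28908187-28908486 (plus strand), Lmcd1 at chr4:146948743-146949042 (plus strand) and Actg2 at chr4:117593990-117594289 (minus strand).

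Acta1 held a CArG box whose first base was 94 bases before the start (CCAAATATGG) and a CATTCC 67 bases before it. Actg1 held a CArG box at 90 bases (CCATATATGG), Srf held a pair at 81 and 61 bases (CCATATAAGG and CCATAAAAGG), and Ccn2 held 3 copies of GGAATG at 166, 101 and 92 bases. Of the 47 genes, 38 had a promoter in the table, among them Cnn2, Mkl1, Myl6 and Myh9, which have no levels here. Cnn2 is among the genes with a CArG box. A CArG box was found in 6 of these 38 (15.8%), against 1.64% of all 33469 promoters, and GGAATG on either strand in 18 of 38 (47.4%), against 14.2% of all. The list was made from known targets of these factors, so higher shares follow from the choice of genes and are not a result. Each member entered with a single promoter, while every promoter in the table counted in the comparison. The CArG box reads the same pattern on both strands, and no match of one motif overlapped the other in the sequences shown. By class, the box was in 2 of 8 muscle-type genes and 4 of 30 others, and GGAATG in 3 of 8 and 15 of 30. Cnn1 and Lmcd1, which were higher at 300 mOsm, held neither in this window, and Actg1, whose level did not pass the test, held the box. A match is a description of the letters and not a binding site, and a stretch without an exact match may still be one.

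The 12 arrays were not on one scale, so each was shifted to a common median of 7.09 on the log2 scale, and levels below are log2 values after this shift. The medians before it lay between 6.81 and 7.58, and 2 arrays at 24 h (replicate 1 at 300 and replicate 3 at 640) lay below the other 4 of that time. Arrays also resembled each other across osmolalities: in their deviations from the group mean over all genes, each of the 6 arrays at 300 mOsm had 1 partner at 640 mOsm of the same time with a correlation between 0.58 and 0.84, and the other 12 pairs lay between -0.72 and -0.13. The partners were replicates 1 and 3, 2 and 2, and 3 and 1 at both times, so the replicate numbers do not name them except for number 2. As no label gives these partners, the fit does not use them, and a change that misses its threshold is not shown to be absent. The epithelial adhesion gene Cdh1 had a level of 12.16 ± 0.21 at 300 mOsm and 11.96 ± 0.24 at 640 mOsm after 48 h (SD, n = 3 each), and the principal cell water channel gene Aqp2 had 7.31 ± 0.51 at 300 mOsm and 11.72 ± 0.13 at 640 mOsm. The fibroblast collagen gene Col1a1 had 10.67 ± 0.37 at 300 mOsm and 10.35 ± 0.16 at 640 mOsm, also above the array median.

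The first question is which members differed between 300 and 640 mOsm 48 h after the step. Muscle-type genes were higher at 300 mOsm: the skeletal muscle actin Acta1, the slow and cardiac troponin C gene Tnnc1, the LIM protein gene Lmcd1 and the smooth muscle calponin gene Cnn1 rose 2.17-fold to 4.28-fold. These 4 were the members that passed the limma test over all genes (adjusted p under 0.05), all higher and all among the 12 muscle-type genes, and 0 of the 31 other members passed. At this threshold 0.524% of all genes tested were called higher and 1.33% lower, or 1.85% in either direction. The classes were set with earlier results of these data known, so the split of the calls between them is only a description. The cytoplasmic actins Actb and Actg1 differed by 0.04 and 0.11 on the log2 scale.

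**Figure D1:**
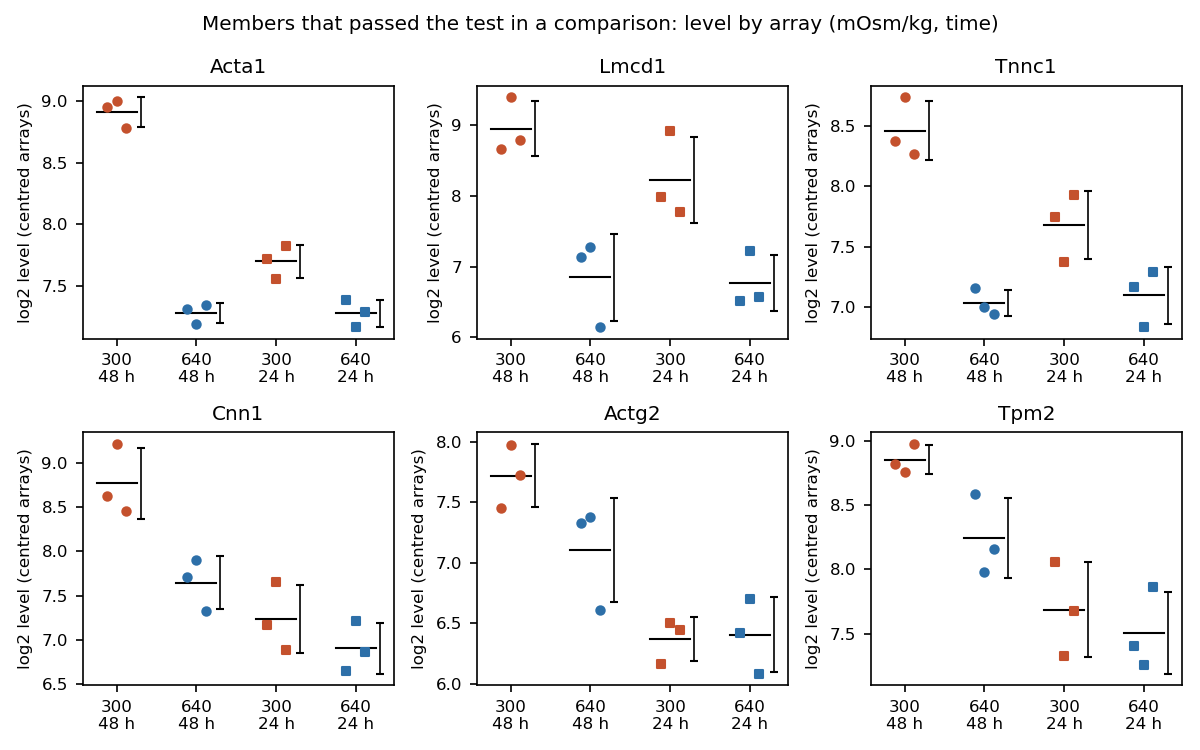
Log2 level on centred arrays (vertical axis) of the 6 members that passed the test in a comparison, for the 3 arrays of each group (points), with the group mean (line) and SD (bar); 300 mOsm/kg in red, 640 mOsm/kg in blue, circles 48 h, squares 24 h. Acta1, Lmcd1, Tnnc1 and Cnn1 have all 3 arrays at 300 mOsm after 48 h above all 3 at 640 mOsm.

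Acta1 encodes the actin of skeletal muscle thin filaments. Its level was 8.95, 9.00 and 8.78 at 300 mOsm after 48 h, against 7.31, 7.19 and 7.34 at 640 mOsm. The lowest array at 300 stood more than 1 log2 unit above the highest at 640, and the log2 change of 1.63 ± 0.15 (SE) had an adjusted p of 2.63e-05. After 24 h it had 7.72, 7.56 and 7.82 at 300 mOsm, against 7.38, 7.17 and 7.29 at 640 mOsm. Here too the groups did not overlap, but the log2 change of 0.42 did not pass (adjusted p = 0.503).

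Lmcd1 encodes a LIM and cysteine-rich domain protein of heart and skeletal muscle that restrains GATA factors. Its levels after 48 h were 8.66, 9.39 and 8.79 at 300 mOsm, against 7.13, 7.28 and 6.15 at 640 mOsm. The groups did not overlap, although replicate 3 at 640 mOsm stood about 1 log2 unit below the other two, and the change was 2.10 ± 0.34 (adjusted p = 0.00267), the rank 3 of all genes tested from the highest. Lmcd1 was already apart after 24 h, with 7.99, 8.91 and 7.78 at 300 mOsm, against 6.52, 7.22 and 6.57 at 640 mOsm. That change, 1.46 ± 0.34, was likewise rank 3 of all genes but did not pass (adjusted p = 0.0733).

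Tnnc1 encodes the calcium sensor of the troponin complex in slow skeletal and cardiac muscle. It had 8.38, 8.73 and 8.27 at 300 mOsm after 48 h, against 7.16, 7.00 and 6.94 at 640 mOsm. All 3 arrays at 300 lay more than 1 log2 unit above all 3 at 640, and the change was 1.43 ± 0.19 (adjusted p = 0.000629). Its partner in the same complex, the cardiac troponin T gene Tnnt2, gave 5.82, 6.00 and 5.83 at 300 mOsm and 6.03, 5.97 and 5.89 at 640 mOsm, and the groups overlapped (log2 change -0.08 ± 0.15).

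Cnn1 encodes calponin of differentiated smooth muscle, which binds actin and slows the myosin motor. Levels after 48 h were 8.63, 9.21 and 8.46 at 300 mOsm, against 7.71, 7.91 and 7.33 at 640 mOsm. The groups did not overlap (change 1.12 ± 0.25, adjusted p = 0.0288). This call was the least secure of the 4: it was lost on the deposited values (adjusted p = 0.255), without replicate 1 or 2 at 300 mOsm (0.0641 and 0.167) and without replicate 1 or 3 at 640 mOsm (0.100 and 0.156), while the change stayed between 0.89 and 1.18 in these fits.

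The other 8 muscle-type genes did not pass after 48 h. Tagln, the transgelin of smooth muscle, had 11.71, 12.01 and 11.92 at 300 mOsm, against 11.48, 11.28 and 10.97 at 640 mOsm, and Actg2, the enteric smooth muscle actin, had 7.45, 7.98 and 7.73 at 300 mOsm, against 7.33, 7.38 and 6.61 at 640 mOsm. In both the groups did not overlap, with changes of 0.64 ± 0.20 (adjusted p = 0.191) and 0.61 ± 0.23 (adjusted p = 0.339). Acta2, the vascular smooth muscle actin and a common marker of myofibroblasts, had 12.07, 12.55 and 12.31 at 300 mOsm, against 11.92, 12.09 and 11.53 at 640 mOsm, where 1 array at 640 mOsm reached into the range at 300 (change 0.46, adjusted p = 0.446). Myh11, the smooth muscle myosin heavy chain, changed by 0.28, Des, the muscle intermediate filament desmin, by 0.32, Lmod1, a leiomodin that nucleates filaments, by 0.22, and Fhl1, a LIM-only protein of striated muscle, by -0.03.

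As a class, the 12 muscle-type genes had a median log2 change of 0.54 after 48 h, with 10 of 12 above 0. The 31 others had a median of 0.18 with 22 above 0, and all genes tested had a median of 0.02. When genes that muscle and other cells share (Myl9, Mylk, Tpm1, Tpm2, Cald1, Csrp1 and Fhl2) were counted with the muscle-type ones, the medians were 0.41 over 19 genes and 0.12 over the other 24. In 16 of the 43 members all 3 arrays at 300 mOsm stood above all 3 at 640 mOsm, and in 1 below, where 7.83% and 7.02% of all genes did so. Of the 16, 7 were muscle-type genes.

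**Figure D2:**
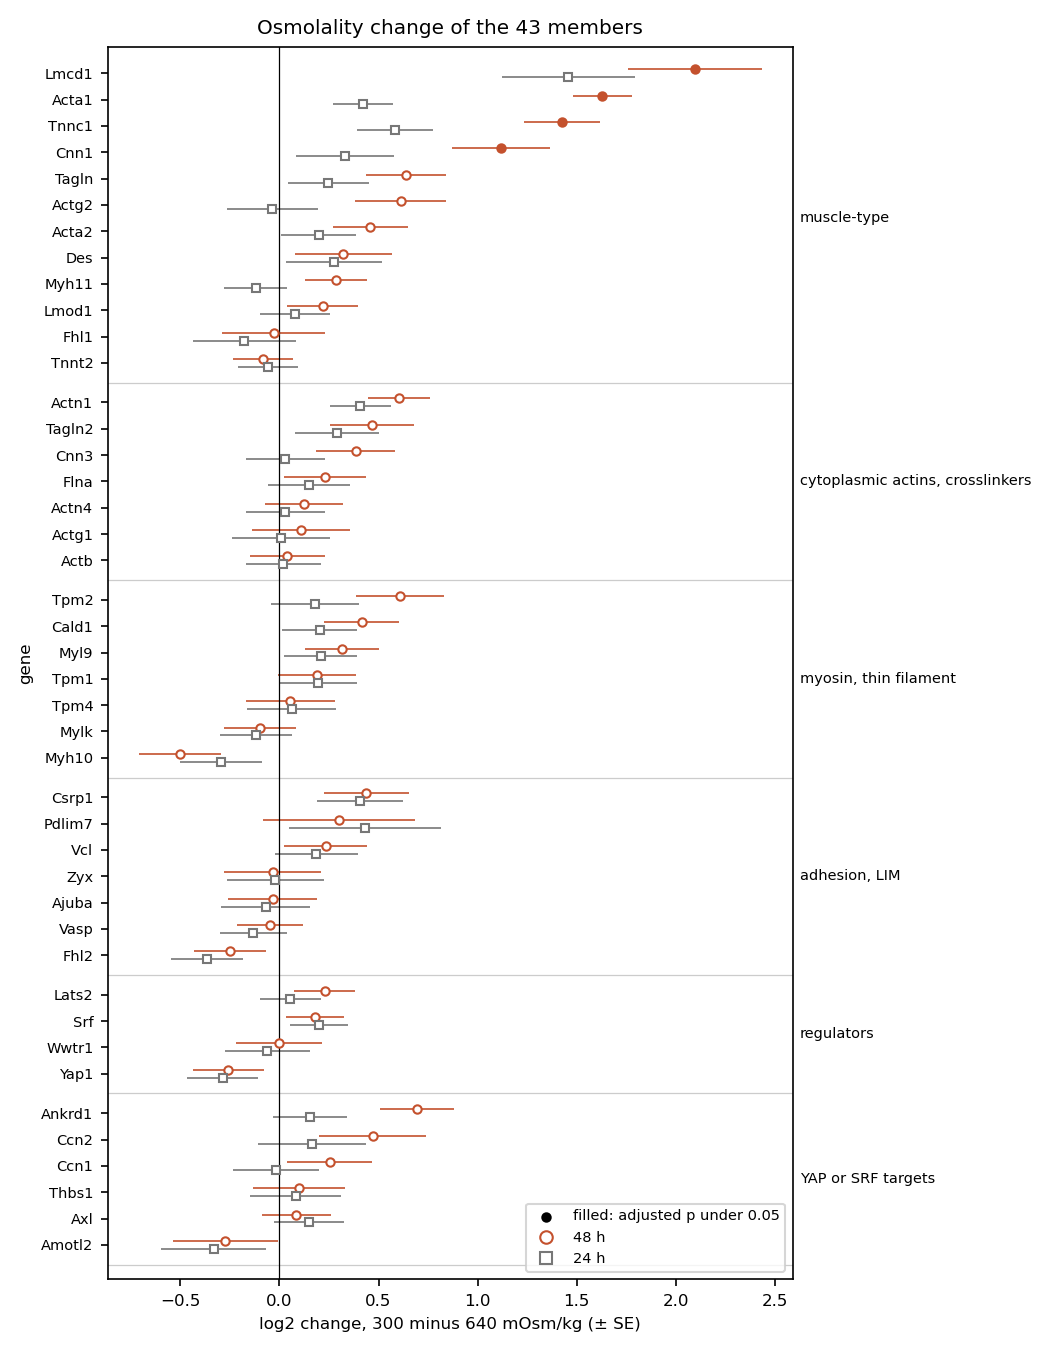
Log2 change between 300 and 640 mOsm/kg (horizontal axis, 300 minus 640, with moderated SE) of each of the 43 members (rows), sorted within 6 classes, after 48 h (red circles) and 24 h (grey squares); filled symbols passed the test. Lmcd1, Acta1, Tnnc1 and Cnn1 are the filled ones, all after 48 h and all in the muscle-type class.

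Cytoplasmic actins and their crosslinkers were nearer to 0. Actb and Actg1 stood near the top of the scale, where the highest deposited value of all probe sets was 13.86 (Actg1). Whether this position limits their changes was not tested. Actb, the ubiquitous beta actin, had 13.46, 13.33 and 13.46 at 300 mOsm after 48 h, against 13.46, 13.34 and 13.34 at 640 mOsm. The groups overlapped, and the interval of the difference ran from -0.36 to 0.44 (95%). Actg1, the gamma actin, is near-identical to related sequences and was read by 6 probe sets with changes from 0.11 to 0.14. Actn1, alpha actinin of focal adhesions and stress fibres, had 12.31, 12.32 and 12.40 at 300 mOsm, against 11.84, 11.70 and 11.68 at 640 mOsm. Those groups did not overlap, and its change of 0.60 ± 0.15 missed the threshold (adjusted p = 0.0689), which it passed after cyclic loess, after quantile normalization and without the dimmest 30% of genes. Tagln2, the transgelin of non-muscle cells, had 12.09, 11.80 and 12.39 at 300 mOsm, against 12.04, 11.21 and 11.64 at 640 mOsm, and Cnn3, the widely expressed calponin, had 11.84, 11.80 and 12.11 at 300 mOsm, against 11.81, 11.34 and 11.46 at 640 mOsm. In both, replicate 1 at 640 mOsm reached into the range at 300 (changes 0.47 and 0.38). The actinin paralogue Actn4 changed by 0.12 and the crosslinker Flna by 0.23, and none of the 7 genes of this class passed.

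Of 7 measured genes of myosin and of thin filament regulation, 0 passed after 48 h, 5 were above 0 and 2 below. Tpm2, beta tropomyosin, had 8.82, 8.76 and 8.97 at 300 mOsm, against 8.59, 7.98 and 8.16 at 640 mOsm, and the groups did not overlap (0.61 ± 0.22, adjusted p = 0.307). Myh10, the non-muscle myosin heavy chain IIB, went the other way, with 10.64, 10.24 and 10.20 at 300 mOsm, against 10.75, 10.76 and 11.07 at 640 mOsm. It was the 1 member whose arrays at 300 all lay below those at 640 (change -0.50 ± 0.21, adjusted p = 0.442). Cald1 encodes caldesmon, which holds myosin off actin, and had 11.70, 11.52 and 11.63 at 300 mOsm, against 11.13, 11.02 and 11.46 at 640 mOsm, without overlap (change 0.41, adjusted p = 0.574). The regulatory light chain gene Myl9 changed by 0.32, Tpm1 by 0.19, Tpm4 by 0.06 and the light chain kinase gene Mylk by -0.10.

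Among 7 genes of adhesion and LIM proteins 0 passed, and 3 were above 0 and 4 below. Csrp1, a LIM protein of smooth muscle and other cells, had 11.86, 12.16 and 12.32 at 300 mOsm after 48 h, against 11.97, 11.72 and 11.34 at 640 mOsm, and Fhl2, a LIM cofactor of SRF and other factors, had 9.35, 9.42 and 9.30 at 300 mOsm, against 9.91, 9.52 and 9.40 at 640 mOsm. Both pairs of groups overlapped, with changes of 0.44 and -0.25. Pdlim7 changed by 0.30, vinculin (Vcl) by 0.23, zyxin (Zyx) by -0.03, Ajuba by -0.03 and Vasp by -0.05. Pdlim7 shows how far arrays of 1 group could differ: its levels after 48 h were 10.07, 11.07 and 10.38 at 300 mOsm, against 10.19, 10.75 and 9.67 at 640 mOsm. Replicate 2 was the highest of each group, and replicate 2 at 640 mOsm stood above 2 of the 3 arrays at 300.

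The second question concerns the regulators themselves and the target genes outside the filament. None of the 4 measured regulators (Srf, Yap1, Wwtr1 and Lats2) passed the limma test after 48 h, and 0 had an unadjusted p under 0.05. At that unadjusted threshold 520 of the 14506 genes tested were higher and 666 lower. Srf had 8.98, 8.91 and 8.90 at 300 mOsm, against 8.77, 8.75 and 8.73 at 640 mOsm. The groups did not overlap, but the change was small (0.18, 95% interval -0.13 to 0.49). Yap1 had 9.74, 9.41 and 9.76 at 300 mOsm, against 10.07, 9.66 and 9.95 at 640 mOsm, and the groups overlapped (change -0.26, interval -0.64 to 0.13). Wwtr1, which encodes TAZ, changed by -0.0020 (interval -0.46 to 0.46). Lats2, a kinase that holds YAP in the cytoplasm, had 10.84, 10.60 and 10.65 at 300 mOsm, against 10.46, 10.40 and 10.55 at 640 mOsm, with groups apart by a small margin (change 0.23, interval -0.10 to 0.56). RNA levels do not show where the proteins were or whether they were active.

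**Figure D3:**
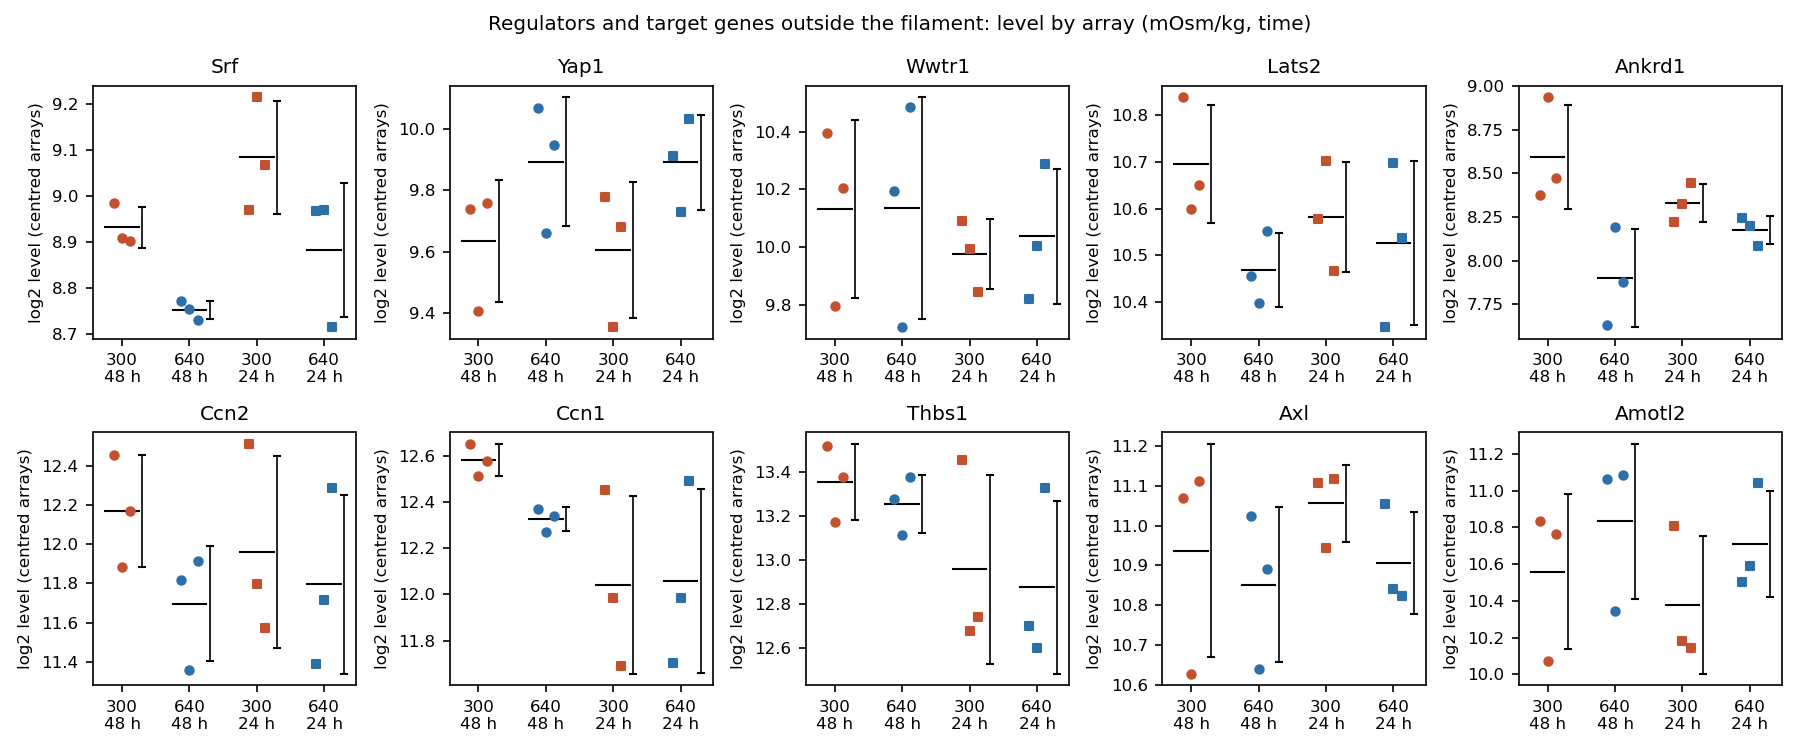
Log2 level on centred arrays (vertical axis) of 4 regulators and 6 target genes in the 3 arrays of each group (points), with mean (line) and SD (bar); 300 mOsm/kg in red, 640 mOsm/kg in blue, circles 48 h, squares 24 h. Ankrd1, Srf, Lats2 and Ccn1 have the 3 arrays at 300 mOsm above those at 640 mOsm after 48 h, and none of the 10 passed the test.

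Ankrd1, a cardiac ankyrin repeat protein gene and a standard readout of YAP, had 8.37, 8.93 and 8.47 at 300 mOsm after 48 h, against 7.63, 8.19 and 7.88 at 640 mOsm. The groups did not overlap, and the change of 0.69 ± 0.19 had an adjusted p of 0.0907. Ccn1 and Ccn2 encode matricellular proteins that are the other usual YAP readouts. Ccn2 had 12.45, 11.88 and 12.17 at 300 mOsm, against 11.82, 11.36 and 11.91 at 640 mOsm, with overlapping groups (change 0.47, interval -0.11 to 1.05). Ccn1 had 12.65, 12.51 and 12.58 at 300 mOsm, against 12.37, 12.27 and 12.34 at 640 mOsm, with groups apart by a small margin (change 0.25, interval -0.21 to 0.71). Thbs1 (thrombospondin) changed by 0.10 and the receptor tyrosine kinase gene Axl by 0.08. Amotl2, a YAP-binding angiomotin, had 10.84, 10.08 and 10.77 at 300 mOsm, against 11.06, 10.35 and 11.09 at 640 mOsm, with replicate 2 the lowest of each group and overlapping groups (change -0.27). Of these 6 target genes 5 were above 0, 1 was below and 0 passed.

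After 24 h, 0 of the 43 members passed the test in either direction, where 0.276% of all genes were called higher and 0.379% lower by limma. At an unadjusted p under 0.05, 353 of the 14506 genes tested were higher and 437 lower. Of the members, 4 were higher at that threshold (Lmcd1, Tnnc1, Acta1 and Actn1) and 0 lower. The arrays did not overlap for 6 members, all higher at 300 mOsm (these 4, Tagln2 and Srf), where 3.7% of all genes were higher and 4.86% lower in this way, or 8.56% in either direction. The median change was 0.22 over the muscle-type genes and 0.06 over the others, against -0.04 over all genes. Tnnc1 had 7.74, 7.37 and 7.93 at 300 mOsm after 24 h, against 7.17, 6.83 and 7.29 at 640 mOsm (change 0.58, adjusted p = 0.384).

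Ccn2 had 12.51, 11.80 and 11.57 at 300 mOsm after 24 h, against 11.39, 11.71 and 12.28 at 640 mOsm, and Ccn1 had 12.45, 11.98 and 11.69 at 300 mOsm, against 11.70, 11.99 and 12.49 at 640 mOsm. The highest arrays, replicate 1 at 300 and replicate 3 at 640, were for both genes those of low deposited median, and the part of those arrays in the values was not tested. Ankrd1 had 8.22, 8.33 and 8.44 at 300 mOsm, against 8.24, 8.20 and 8.08 at 640 mOsm, and the same arrays were the lowest of their groups. Without these 2 arrays 0 members passed after 24 h, as with them.

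Whether the change with osmolality differed between the times was tested as the difference of both changes (48 h minus 24 h). For Acta1 this was 1.21 ± 0.21, the rank 1 from the highest of all 14506 genes, and it did not pass (adjusted p = 0.0963). The next members were Tnnc1 (0.84), Cnn1 (0.79), Actg2 (0.65) and Lmcd1 (0.64), and none of these passed. In all 0 members passed, where 0.0276% of all genes did, all with a lower change at 48 h. At an unadjusted p under 0.05, 3 members had a higher change at 48 h and 0 a lower one. Over the 14506 genes tested, 49 had a higher and 82 a lower change at that threshold.

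The third question is how the members moved with time at each osmolality. At 300 mOsm, 4 members rose between 24 h and 48 h and 0 fell, where 0.165% of all genes were called higher and 0.0896% lower. These were Cnn1, Actg2, Acta1 and Tpm2, which were 2.24-fold to 2.88-fold higher at 48 h. In 14 of the 43 members all 3 arrays at 48 h stood above all 3 at 24 h and in 0 below, where 7.29% and 4.85% of all genes did so. At 640 mOsm 0 members passed, where limma called 0.138% of all genes higher and 0% lower. At an unadjusted p under 0.05, 6 members were higher at 48 h and 0 lower, where 530 and 424 of the 14506 genes were. The arrays did not overlap for 5 members that were higher and 1 that was lower (Tnnt2), where 4.95% and 4.63% of all genes (9.58% in either direction) did so.

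Cnn1 changed by 1.53 ± 0.25 at 300 mOsm (adjusted p = 0.0193) and by 0.74 ± 0.25 at 640 mOsm (adjusted p = 0.523). Actg2 had 7.45, 7.98 and 7.73 after 48 h at 300 mOsm, against 6.16, 6.50 and 6.45 after 24 h, without overlap (change 1.35 ± 0.23, adjusted p = 0.0257). At 640 mOsm it had 7.33, 7.38 and 6.61 after 48 h, against 6.42, 6.70 and 6.09 after 24 h, and the groups overlapped (change 0.70, adjusted p = 0.514). Tpm2 had 8.82, 8.76 and 8.97 after 48 h at 300 mOsm, against 8.06, 7.33 and 7.68 after 24 h, without overlap (change 1.16 ± 0.22, adjusted p = 0.0435). Its arrays at 640 mOsm were also apart, 8.59, 7.98 and 8.16 after 48 h, against 7.40, 7.26 and 7.86 after 24 h (change 0.73, adjusted p = 0.429).

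Acta1 was 1.21 ± 0.15 higher after 48 h than after 24 h at 300 mOsm (adjusted p = 0.00319), and its change at 640 mOsm was 0.0032 ± 0.15. Tnnc1 changed by 0.78 at 300 mOsm (adjusted p = 0.141) and by -0.06 at 640 mOsm, and Lmcd1 by 0.72 (adjusted p = 0.652) and 0.08. Desmin (Des) had changes of 1.00 at 300 mOsm (adjusted p = 0.132) and 0.95 at 640 mOsm (adjusted p = 0.283). The median time change of the muscle-type genes was 0.75 at 300 mOsm and 0.18 at 640 mOsm, against 0.21 and 0.14 for the others and 0.05 and 0.0018 for all genes.

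**Figure D4:**
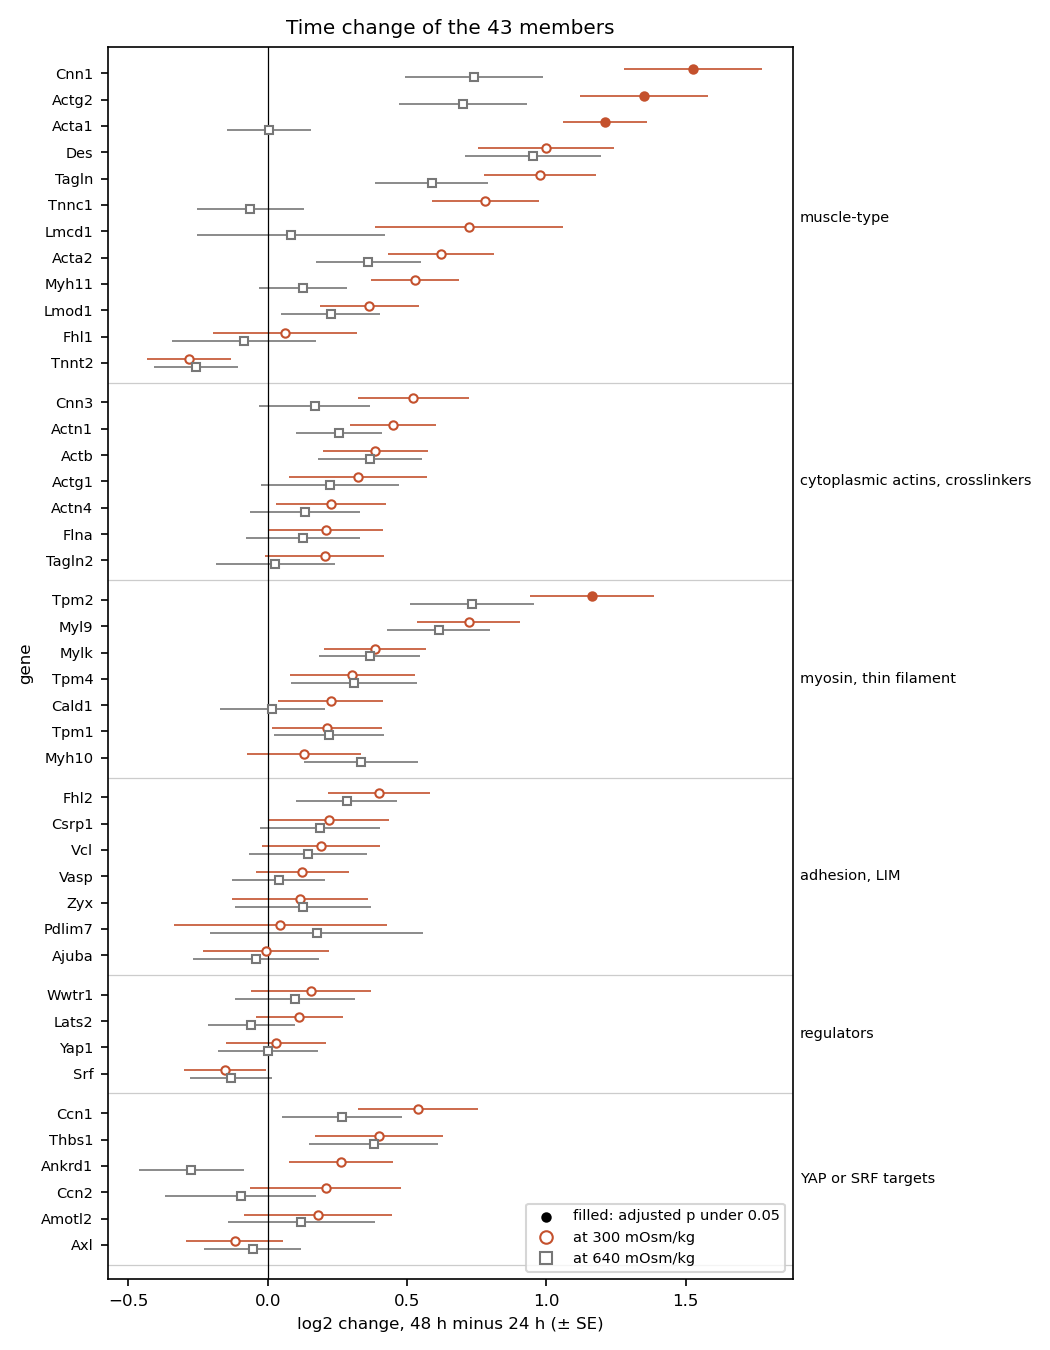
Log2 change between the times (horizontal axis, 48 h minus 24 h, with moderated SE) of each of the 43 members (rows), sorted within 6 classes, at 300 mOsm/kg (red circles) and 640 mOsm/kg (grey squares); filled symbols passed the test. Cnn1, Actg2, Acta1 and Tpm2 passed at 300 mOsm and no member at 640 mOsm, where Acta1 lies at 0.0032.

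All time calls were lost without the centring, and those of Cnn1, Actg2 and Tpm2 also depended on single arrays. Without centring, the median change of all genes with time was -0.38 at 300 mOsm and -0.41 at 640 mOsm, so the time changes above are relative to the median gene. On the deposited values the median time change of the muscle-type genes was 0.32 at 300 mOsm and -0.24 at 640 mOsm, and the time changes of Acta1, Tnnc1 and Lmcd1 at 640 mOsm were -0.41, -0.48 and -0.33. On these values 0 members passed at 300 mOsm. Leaving out replicate 1, 2 or 3 at 24 h left 3, 2 and 1 calls, and leaving out replicate 1, 2 or 3 at 48 h left 1, 1 and 2, with Acta1 among the calls in each of these 6 fits.

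Most fibroblast markers were also higher at 48 h than at 24 h. Of 11, 10 changed by more than 0 at 300 mOsm and 11 at 640 mOsm, with medians of 1.06 and 0.99. Over all genes 58.64% and 50.34% were above 0. At 300 mOsm 4 passed the test as higher (Dcn, Postn, Col1a1 and Pdgfrb), where 0.165% of all genes did. At 640 mOsm 3 passed (Dcn, Col1a1 and Pdgfrb), where 0.138% of all genes did. Their mean level lay between 7.28 and 7.61 after 48 h at 300 mOsm, against 6.50 to 6.78 after 24 h, and between 7.45 and 7.68 after 48 h at 640 mOsm, against 6.40 to 6.89 after 24 h. Smooth muscle and pericyte markers that are not members (9 measured of 10) had 0 calls and mean levels of 6.92 to 7.21 after 48 h at 300 mOsm, against 6.60 to 6.89 after 24 h. At 640 mOsm they also had 0 calls, with 6.64 to 6.90 after 48 h, against 6.37 to 6.71 after 24 h, which overlapped. Macrophage markers (8 of 8) had 0 calls and mean levels of 6.33 to 6.61 after 48 h at 300 mOsm, against 6.07 to 6.10 after 24 h, and at 640 mOsm 0 calls and 6.61 to 6.87 after 48 h, against 6.23 to 6.39 after 24 h. The part of these cells in the time changes of the members was not tested.

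For the osmolality change after 48 h the fibroblast markers gave other values. Their mean level was 7.28 to 7.61 at 300 mOsm, against 7.45 to 7.68 at 640 mOsm, with a median change of -0.03, and while the matrix gene Postn rose (1.22), S100a4 fell by 2.38. In the same arrays the mean level of the muscle-type members was 8.40 to 8.64 at 300 mOsm, against 7.59 to 7.92 at 640 mOsm. The smooth muscle and pericyte markers had 6.92 to 7.21 at 300 mOsm, against 6.64 to 6.90 at 640 mOsm, with 0 of 9 called and a median change of 0.12, and their part in the rise of the muscle-type genes was not tested.

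Skeletal and cardiac muscle markers (12 of 12 measured) had mean levels of 4.81 to 4.92 at 300 mOsm after 48 h, against 4.76 to 5.00 at 640 mOsm, below the array median, and 0 were called. Among them Actn2, the sarcomeric actinin, changed by 0.08, Myl2 by 0.14, and Myog and Myod1, the factors of muscle commitment, by -0.21 and -0.06. The median change of the 12 was 0.0003, with 6 above 0, and the highest was 0.33 (Myh1). The arrays did not overlap for 1 that was higher (Myh1) and 1 that was lower (Ckm), where 7.83% and 7.02% of all genes did so. Principal cell markers had mean levels of 8.83 to 8.99 at 300 mOsm, against 9.64 to 9.71 at 640 mOsm. Of the 15, 4 passed the test as lower, where 1.33% of all genes did. The median change of the 15 was only -0.10, and 6 were above 0. Endothelial markers (7 of 8) had 6.34 to 6.54 at 300 mOsm, against 6.68 to 6.96 at 640 mOsm. Of these 7, 6 were below 0 and 1 passed the test as lower (Emcn). Macrophage markers had 6.33 to 6.61 at 300 mOsm, against 6.61 to 6.87 at 640 mOsm. Of these 8, 7 were below 0 and 1 passed as lower (Csf1r). Over the 14506 genes tested 6587 were below 0. With no detection calls, a level below the median cannot be called absent.

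**Figure D5:**
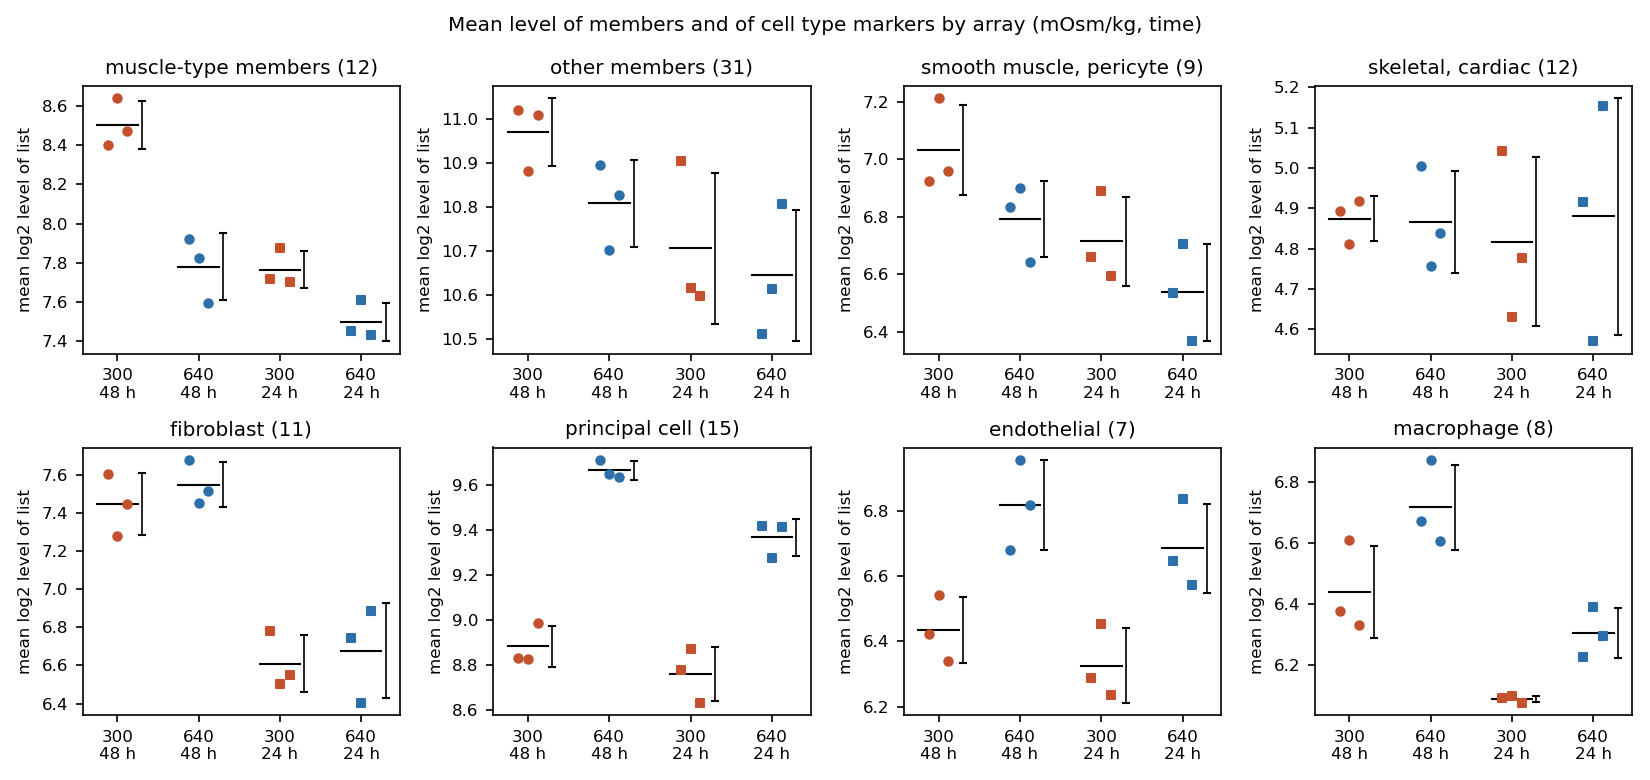
Mean log2 level of each list on centred arrays (vertical axis, scales differ) in the 3 arrays of each group (points), with mean (line) and SD (bar); 300 mOsm/kg in red, 640 mOsm/kg in blue, circles 48 h, squares 24 h. Muscle-type members reach 8.40 to 8.64 at 300 mOsm after 48 h, above every other group, while fibroblast markers are higher at 48 h than at 24 h at both osmolalities.

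Within a group the members varied about as much as other genes. The median within-group SD was 0.25 over the 43 members, 0.24 over the muscle-type genes and 0.25 over all genes tested. Several muscle-type genes followed the same arrays: after 48 h at 300 mOsm, replicate 2 was the highest array for 8 of the 12 and replicate 1 the lowest for 7, and at 640 mOsm replicate 1 was the highest for 6 and replicate 3 the lowest for 8.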

How the data were processed

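Total RNA of 12 samples was measured on Affymetrix rat gene arrays, 3 samples in each of 4 groups. The short codes in the descriptions give other osmolalities for 2 groups, and the titles and treatment labels were followed. The authors deposited log2 values per probe set, made with RMA in Affymetrix Power Tools per the submitters' processing notes; their versions are unknown here. Of 27596 probe sets, 15310 had 1 gene symbol, and the probe set with the highest mean stood for each of 14506 genes. Arrays were centred on their medians over these genes. A linear model with a mean for each group was fitted to all 12 arrays with limma 3.58.1 in R 4.3.3, leaving 8 residual degrees of freedom. A gene passed where its p, adjusted by Benjamini and Hochberg's method over all genes, was under 0.05. Errors of changes are moderated standard errors and those of levels are SDs. The fit was tested on simulated data with independent noise in each array. Those data lack the correlation between partner arrays, so that test does not cover its effect.

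Values by array were given for members called in a comparison and for the 3 members with the largest change in either direction at 48 h in each class. Acta2, Tagln, Tnnt2, Actb, Ccn1 and single marker genes were named in addition, after their values were seen. The members, classes and lists were chosen with earlier results of these data known. A list of further pathway genes is not reported here. Alternatives were the deposited values, cyclic loess, quantile normalization, a filter on dim genes, averaging probe sets, trend and robust settings, the compared groups alone, a replicate block, leaving out arrays, and another assignment of shared genes. Promoters came from RefSeq (GRCr8) and were matched by symbol.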

Additional observations from a re-analysis of the deposited data

How the results depend on the processing

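The calls after 48 h were 4 members, and 3 to 5 under every alternative run: 3 on the deposited values (Cnn1 lost), 5 with Actn1 after cyclic loess, after quantile normalization and without the dimmest 30% of genes, and 3 to 4 leaving out arrays. At 24 h the count was 0 under every alternative except the replicate block, with 1 (Lmcd1, adjusted p = 0.0195). At 640 mOsm over time, and for the difference between times, it was 0 under every alternative run. At 300 mOsm over time, 4 members were called, 0 on the deposited values, 0 with the replicate block, 1 to 3 leaving out single arrays, and 6 without the 2 arrays of low median at 24 h. The cause was not tested. Class medians of the osmolality change moved by less than the within-group SD under each scaling and assignment, while those of the time change moved by more on the deposited values, where they were 0.32 (muscle-type) and -0.22 (others) at 300 mOsm and -0.24 and -0.27 at 640 mOsm. No change that passed the test turned its sign under an alternative. The replicate block left 5 calls after 48 h, with Ankrd1 added. Same-numbered arrays did not all deviate together (the correlation was -0.13, 0.84 and -0.21 at 24 h and -0.23, 0.80 and -0.22 at 48 h), so the numbers are not taken as pairs. Over all genes, the deposited values gave 13 calls at 24 h (95 with centring), 104 after 48 h (269), 0 over time at either osmolality (37 at 300 and 20 at 640 mOsm) and 0 for the difference (4). The compared groups alone gave 10 calls at 24 h, and the replicate block gave 2 over time at 300 mOsm and 0 at 640 mOsm. Without the 2 arrays of low median there were 17 calls at 24 h, and 219 at 300 mOsm and 34 at 640 mOsm over time. Leaving out single arrays gave 26 to 75 calls at 24 h, 158 to 194 after 48 h, 7 to 38 over time at 300 mOsm, 6 to 15 at 640 mOsm and 0 to 4 for the difference. Signal over background is unknown here.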
